A study of Homo sapiens with 84 samples.

Results

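The MHC class II genes were described here across 8 established human lymphoma cell lines and 5 treatments, measured on Illumina bead arrays. The set was fixed by name as 10 genes: HLA-DRA, HLA-DRB1, HLA-DPA1, HLA-DPB1, HLA-DQA1, HLA-DMA, HLA-DMB, HLA-DOB, CD74 and CIITA. Of these, 9 had a named probe among the 20046 gene symbols of the array annotation, and HLA-DQA1 was not analysed here. The brightest probe stood for each gene. All 9 were among the 12440 genes tested over 8 lines, and 8 were among the 12559 genes tested over 4 lines, where HLA-DRB1 was too dim to enter.

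All 8 lines (RIVA, TMD8, SUDHL2, U2932, OCILY1, OCILY18, DOHH2 and SUDHL10) were cultured for 4, 8 or 12 h with DMSO, the solvent control, or with PQR309, which inhibits both PI3K and mTOR. RIVA, TMD8, SUDHL2 and U2932 also received idelalisib, an inhibitor of PI3K delta, duvelisib, an inhibitor of PI3K delta and gamma, or ibrutinib, an inhibitor of the B-cell receptor kinase BTK, at the same times. There was 1 array per line, time and treatment, 84 in all, and the labels give no dose and do not say whether cultures were separate. The lines are therefore the replicates, p-values measure the spread between them, and their number limits the precision.

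MHC class II molecules carry peptides from internalised proteins to the surface of antigen-presenting cells, B cells among them, where CD4 T cells read them. HLA-DR and HLA-DP are the surface molecules, each an alpha and a beta chain. CD74, the invariant chain, fills their groove in the endoplasmic reticulum and guides them to endosomes. There HLA-DM, made of HLA-DMA and HLA-DMB, exchanges the last piece of CD74 for peptide, and HLA-DO, made of HLA-DOA and HLA-DOB, restrains HLA-DM in B cells. CIITA is the coactivator that switches the genes on together; it binds no DNA itself but docks on factors at the X and Y boxes of their promoters. Loss of class II molecules is a known feature of some B-cell lymphomas.

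Separate sources of values were used. Comparisons over 8 lines used the authors' normalized log2 values of 48 arrays, and comparisons among inhibitors used 60 arrays of 4 lines processed from the raw intensities. For these 4 lines the raw table holds other DMSO and PQR309 arrays than the normalized table (rank correlations of 0.866 to 0.964 between the pairs of arrays that differ), so their PQR309 difference was measured in 2 sets of arrays. The DMSO arrays of DOHH2 differed too (0.923 to 0.948), so DOHH2 was left out of every comparison of more lines on raw intensities. OCILY1 entered those comparisons only where its raw columns held intensities. Detection p-values were given for 3 arrays, all of OCILY1. The highest level from them, 6.73, was the detection level for the 48 arrays, and 6.26 stood in for it in the 60 arrays. The B-cell markers CD79A, CD79B and MS4A1 lay above it on 48 of 48 arrays, CD22 on 47, BLNK on 38 and PAX5 on 3. Among 6 T-cell markers, CD3D and CD3E lay above it on 0 arrays, CD3G and CD7 on 1 each, CD5 on 6 and CD2 on 13. Of the markers listed for monocytes, macrophages or dendritic cells, CD68 and LAMP3 lay above it on 48, FCGR3A on 46, CD14 on 23, CD1C on 16, LYZ on 13 and the other 5 on 0 or 1. The samples are whole cultures, in which fewer expressing cells and less RNA per cell cannot be told apart.

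The untreated lines differed widely in class II RNA. HLA-DRA, the alpha chain that all HLA-DR molecules share, had DMSO levels (log2, mean of 3 times) of 13.13 in OCILY18, 12.90 in TMD8, 12.83 in DOHH2, 12.63 in U2932, 12.02 in SUDHL10, 11.78 in RIVA, 8.36 in SUDHL2 and 6.76 in OCILY1. In this order the arrays of neighbouring lines overlapped from TMD8 to U2932 and between SUDHL10 and RIVA, while SUDHL2 and OCILY1 each stood clear of the line above. OCILY1 was close to background: the HLA-DRA probe passed the detection level on 2 of its 6 arrays. A second HLA-DRA probe gave the same lowest line, at 7.11 in OCILY1 against 13.05 in the highest line, and passed on all 6.

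HLA-DPA1, the alpha chain of HLA-DP, ran from 11.65 in OCILY18 over 11.28 in U2932, 11.19 in DOHH2 and 11.05 in SUDHL10, with TMD8 just below SUDHL10, to 8.47 in RIVA, 7.40 in SUDHL2 and 6.53 in OCILY1. The first 5 lines overlapped from neighbour to neighbour, and the last 3 were each separate. In OCILY1 HLA-DPA1 passed the detection level on 0 of 6 arrays. HLA-DPB1, the beta chain, was highest in OCILY18 at 8.03 and lowest in SUDHL2 at 6.50, and it passed on 31 of 48 arrays, with 0 of 6 in both SUDHL2 and OCILY1.

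HLA-DRB1, the main HLA-DR beta chain, was high only in OCILY18, at 9.92, and DOHH2, at 9.54. Its other 6 lines lay between 6.53 and 6.87, and it passed the detection level on 24 of 48 arrays. HLA-DRB1 is highly polymorphic and closely related to HLA-DRB3, HLA-DRB4 and HLA-DRB5, so which copies and alleles its probe reads is uncertain, and its match to each line was not tested.

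CD74 passed the detection level on every array of every line. Its DMSO level was 13.19 in TMD8, 12.79 in U2932, 12.72 in SUDHL10, 12.57 in OCILY18, 12.34 in DOHH2, 11.64 in OCILY1, 11.45 in RIVA and 10.29 in SUDHL2. OCILY1, lowest in HLA-DRA and HLA-DPA1, was thus sixth in CD74, and its 3 DMSO arrays spread from 10.50 to 12.36.

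The peptide-loading genes were present in all 8 lines, on 48 of 48 arrays for each of HLA-DMA, HLA-DMB and HLA-DOB. HLA-DMA had a mean DMSO level of 9.27 ± 1.28 (SD, n = 8), with OCILY18 highest at 11.50, separate from U2932 at 9.88, RIVA at 9.83 and SUDHL10 at 9.74, which overlapped. TMD8 stood at 9.39, DOHH2 at 8.30, SUDHL2 at 8.12 and OCILY1 at 7.44. HLA-DMB averaged 9.82 ± 1.03 (SD, n = 8) and ran from 11.15 in OCILY18 and 10.88 in RIVA to 8.64 in OCILY1 and 8.29 in SUDHL2. HLA-DOB varied least among these 3, from 8.50 in U2932 to 7.10 in TMD8, a line near the top for HLA-DRA and CD74.

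CIITA was highest in OCILY18 at 7.83, and the other 7 lines, from 7.16 in DOHH2 to 6.58 in SUDHL2, overlapped from neighbour to neighbour except SUDHL2, which was separate. It passed the detection level on 36 of 48 arrays, with 0 of 6 in SUDHL2 and 3 of 6 in both U2932 and OCILY1, so differences of CIITA in those lines sit near background. Over the 8 DMSO line means, Pearson's r with CIITA was 0.91 for HLA-DPB1, 0.79 for HLA-DRB1, 0.71 for HLA-DMA, 0.59 for HLA-DRA and 0.09 for HLA-DOB. HLA-DMA and HLA-DMB had an r of 0.92 with each other, and HLA-DRA and HLA-DPA1 an r of 0.93. These are descriptions over 8 points that share arrays and normalization. OCILY18 was the highest line for CIITA and, except HLA-DOB, for each gene set against CIITA here. How far the r values rest on OCILY18 was not tested. The lines given every inhibitor and those given PQR309 only were not shown to differ in DMSO level for any of the 9 genes by limma's moderated test (0 of 9 called at an adjusted p under 0.05, 0 of 9 at an unadjusted p under 0.05, 0% of all genes called).

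**Figure D1:**
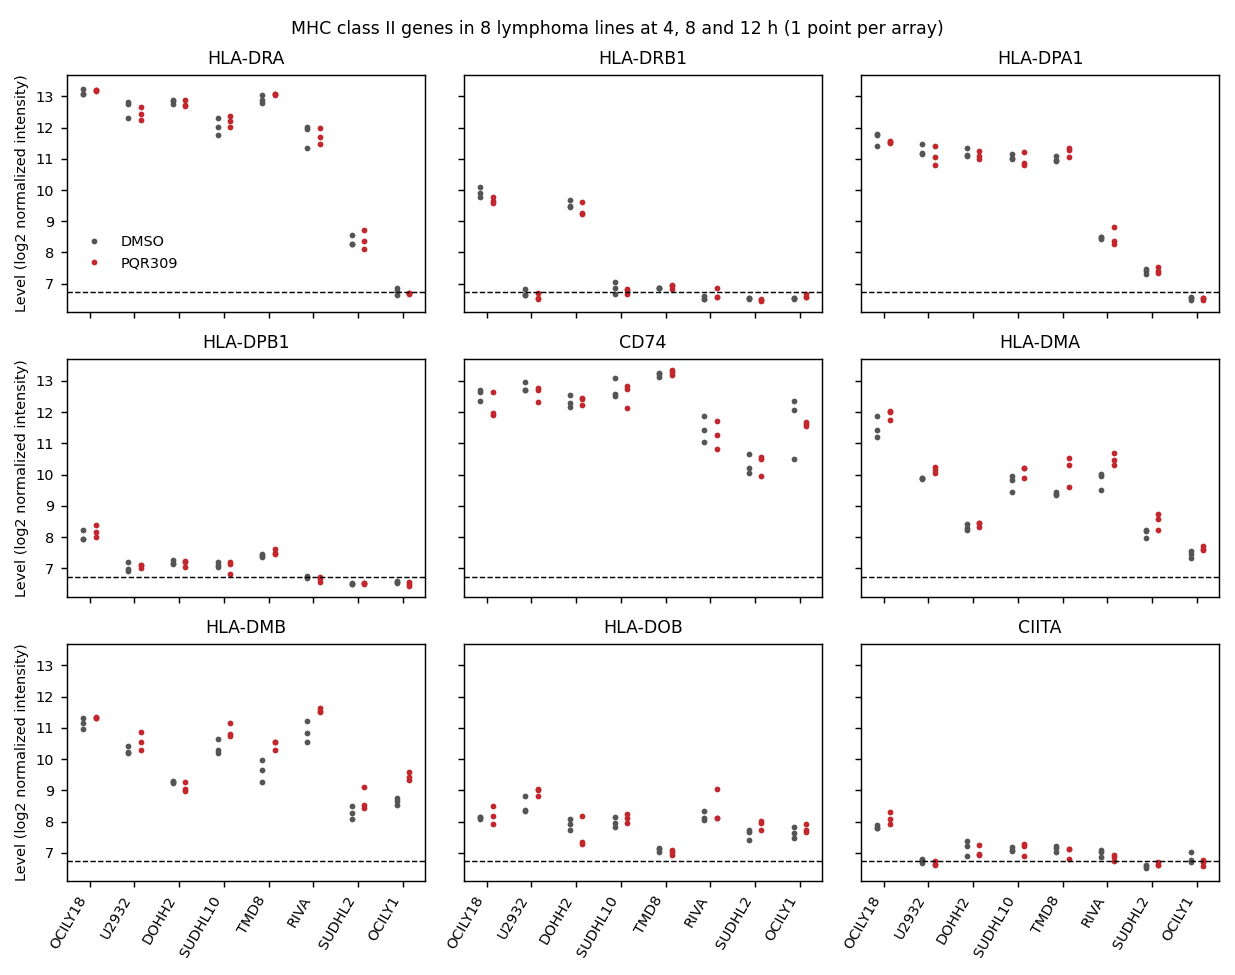
Level (log2 normalized intensity) of 9 MHC class II genes in each of 8 lines, with 1 point per array for DMSO (grey) and PQR309 (red) at 4, 8 and 12 h; the dashed line is the detection level of 6.73. HLA-DRA and HLA-DPA1 drop towards that line in SUDHL2 and OCILY1, HLA-DRB1 rises above 9 only in OCILY18 and DOHH2, and the red points of HLA-DMA lie above the grey ones of the same line and time.

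With PQR309, averaged over 4, 8 and 12 h, both chains of HLA-DM rose and the other 7 measured genes did not pass the test. The count was 2 of 9 higher and 0 lower, with 26.5% of all genes tested called in either direction, 12.5% higher and 14% lower, so the count of members called lies close to the background. The median difference of the 9 genes was 0.01, against 0.00 over all genes tested.

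HLA-DMA ranged over the 24 DMSO arrays from 7.32 (OCILY1), with a median of 9.44, to 11.89 (OCILY18), and over the 24 PQR309 arrays from 7.60 (OCILY1), with a median of 10.11, to 12.04 (OCILY18). The groups overlap because lines differ more than treatments, but within a line and time PQR309 was higher in 24 of 24 pairs. By line the difference was 0.76 in TMD8, 0.67 in RIVA, 0.42 in OCILY18, 0.40 in SUDHL2, 0.37 in SUDHL10, 0.28 in U2932, 0.21 in OCILY1 and 0.11 in DOHH2. The mean was 0.40 ± 0.07 (SE, n = 8), or 1.32-fold with a 95% interval of 1.19 to 1.47, with an adjusted p of 0.00240 in limma.

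HLA-DMB ranged from 8.07 (SUDHL2), with a median of 10.08, to 11.32 (OCILY18) with DMSO, and from 8.45 (SUDHL2), with a median of 10.54, to 11.64 (RIVA) with PQR309. It was higher with PQR309 in 22 of 24 pairs, and the 2 exceptions were DOHH2 at 8 h (-0.28) and at 12 h (-0.26). By line it differed by 0.83 in TMD8, 0.80 in OCILY1, 0.69 in RIVA, 0.52 in SUDHL10, 0.41 in SUDHL2, 0.29 in U2932, 0.17 in OCILY18 and -0.18 in DOHH2. The mean was 0.44 ± 0.10 (SE, n = 8), or 1.36-fold with a 95% interval of 1.16 to 1.59, with an adjusted p of 0.0108 in limma. The differences of HLA-DMA and HLA-DMB were thus both highest in TMD8 and lowest in DOHH2, but OCILY1 was near the top for HLA-DMB and near the bottom for HLA-DMA. The HLA-DMA call was lost when raw intensities of 6 lines, without DOHH2 and OCILY1, were used (0.33, adjusted p = 0.105 in limma). In the raw arrays of RIVA, TMD8, SUDHL2 and U2932, PQR309 was higher in 10 of 12 line and time pairs for HLA-DMA and 9 of 12 for HLA-DMB.

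The surface chains did not pass the test. HLA-DRA differed by 0.01 ± 0.04 (SE, n = 8), with a 95% interval of -0.08 to 0.10, and lines ranged from -0.18 in U2932 to 0.18 in SUDHL10. HLA-DPA1 differed by -0.02, with an interval of -0.12 to 0.07, HLA-DPB1 by 0.01 (-0.06 to 0.09) and HLA-DRB1 by -0.05 (-0.15 to 0.04). For HLA-DRA and HLA-DPA1 these intervals exclude a mean change of the size seen for HLA-DMA, though they include OCILY1, where both lay near background. In the raw arrays of 4 lines HLA-DMA differed by 0.29. There the interval of HLA-DRA (-0.26 to 0.16) excluded that size and that of HLA-DPA1 (-0.09 to 0.34) did not. CD74 differed by -0.10 (-0.21 to 0.01) and CIITA by -0.03 (-0.14 to 0.07), the latter higher in 3 of 8 lines, with OCILY18 at 0.26. HLA-DOB, the HLA-DO beta chain, differed by 0.12 (-0.04 to 0.28), from 0.45 in U2932 to -0.31 in DOHH2, with an adjusted p of 0.245 in limma.

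Set side by side within each line, the HLA-DMA difference was larger than that of HLA-DRA, HLA-DPA1, HLA-DPB1, HLA-DRB1, CD74 and CIITA in 8 of 8 lines each. HLA-DMB exceeded HLA-DRA, HLA-DPA1, HLA-DPB1 and CD74 in 7 of 8 lines, with DOHH2 as the exception, HLA-DRB1 in 8 of 8 and CIITA in 6 of 8. Against HLA-DOB, HLA-DMA and HLA-DMB were each larger in 7 of 8, with U2932 as the exception. Both were compared after their own results were known, so these counts are a description. They include lines in which the other gene passed the detection level on 0 of 6 arrays and could show little difference: HLA-DRB1 and HLA-DPB1 in SUDHL2 and OCILY1, HLA-DPA1 in OCILY1 and CIITA in SUDHL2.

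**Figure D2:**
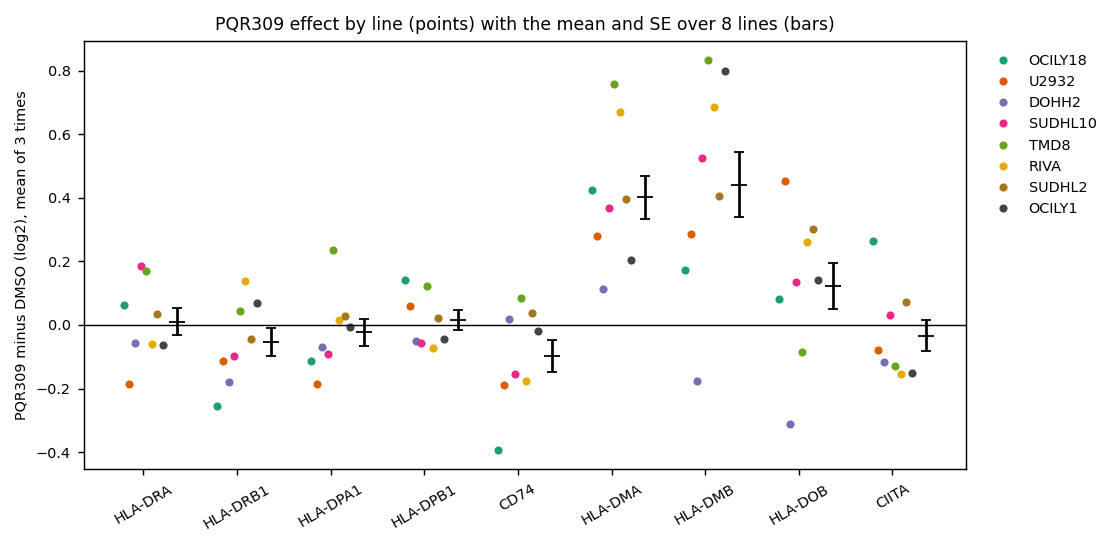
PQR309 minus DMSO (log2), averaged over 3 times, for each MHC class II gene; coloured points are the 8 lines, and the black bars give the mean with limma's SE. HLA-DMA lies above 0 in 8 lines and HLA-DMB in 7, while the means of the other genes lie between -0.10 and 0.12.

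The promoters of HLA-DMA and HLA-DMB are printed here because both genes rose in the mean of 3 times. Beside them are those of HLA-DRB1 and CD74, which did not pass the test on that mean but hold the same motifs. Each stretch is the 130 bases before the annotated start in RefSeq (GRCh38.p14), written 5′ to 3′ on the strand of the gene. Capitals mark CCAAT on either strand (read as ATTGG on the other), the core of the Y box bound by NF-Y. They also mark an X-like motif on either strand (AG, 2 free bases, AC, 3 free bases, TG), a pattern that can miss X boxes.
HLA-DMA, chr6:32953098-32953227, minus strand: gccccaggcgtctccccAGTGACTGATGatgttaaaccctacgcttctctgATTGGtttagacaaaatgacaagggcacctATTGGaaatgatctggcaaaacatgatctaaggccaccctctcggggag
HLA-DMB, chr6:32941029-32941158, minus strand: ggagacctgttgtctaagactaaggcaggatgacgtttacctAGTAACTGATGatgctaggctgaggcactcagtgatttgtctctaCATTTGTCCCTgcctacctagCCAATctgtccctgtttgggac
HLA-DRB1, chr6:32589849-32589978, minus strand: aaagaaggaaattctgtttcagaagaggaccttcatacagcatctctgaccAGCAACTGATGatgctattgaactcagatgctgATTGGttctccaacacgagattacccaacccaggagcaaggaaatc
CD74, chr5:150412911-150413040, minus strand: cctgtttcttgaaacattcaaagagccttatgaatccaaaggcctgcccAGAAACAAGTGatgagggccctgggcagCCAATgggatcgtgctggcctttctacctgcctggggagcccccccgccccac

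In these 4 stretches an X-like match on the gene's strand comes before a CCAAT match. It begins 113 bases before the start in HLA-DMA, 88 in HLA-DMB, 79 in HLA-DRB1 and 81 in CD74. The first CCAAT match after it begins at 79, 22, 46 and 53 bases, in the same order, so the motifs lie farthest apart in HLA-DMB. Over the 250 bases before the start, 8 of the 10 genes had a sequence in the table, 7 held CCAAT, 4 held the X-like motif and these same 4 held both, with 0 overlaps between the motifs. HLA-DPA1 has 2 annotated starts, with neither motif before either, and HLA-DRA and CIITA are named only. Of 35116 such windows in the table, 32.01% held CCAAT, 10.3% the X-like motif and 3.45% both. The motifs were chosen with these sequences in view, and a match is a description of letters. A window without the X-like motif is not shown to lack an X box.

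In the normalized values both HLA-DM genes were called at each time. At 4 h, 3 of 9 genes were called higher, against 17.3% of all genes called in either direction, 7.88% higher and 9.45% lower. HLA-DMA differed by 0.40 ± 0.09 (SE, adjusted p = 0.0107 in limma), HLA-DMB by 0.39 ± 0.08 (0.00920) and HLA-DPA1 by 0.15 ± 0.05 (0.0458), the last higher in every line but U2932. At 8 h the 2 HLA-DM genes were called, against a background of 16% of all genes (7.49% higher, 8.49% lower): HLA-DMA by 0.42 ± 0.08 (adjusted p = 0.00659 in limma) and HLA-DMB by 0.47 ± 0.12 (0.0210). At 12 h HLA-DMA (0.38 ± 0.10, adjusted p = 0.0254 in limma) and HLA-DMB (0.46 ± 0.15, 0.0486) rose and CD74 fell, against a background of 20.5% (10.5% higher, 10% lower). By 12 h the lines had spread apart for HLA-DMB, from 1.27 in TMD8 and 1.09 in RIVA to 0.05 in U2932 and -0.26 in DOHH2, and its 12 h call was lost in 11 of 15 alternatives. From 4 to 12 h HLA-DMB in TMD8 went from 9.97 to 9.27 with DMSO and from 10.31 to 10.54 with PQR309. In RIVA it went from 11.23 to 10.56 with DMSO and from 11.53 to 11.64 with PQR309. Its means over 8 lines went from 9.93 to 9.70 with DMSO and from 10.32 to 10.16 with PQR309. Raw intensities covered 6 lines at 4 and 8 h and 7 lines at 12 h, without DOHH2. On them neither HLA-DMA nor HLA-DMB was called at any time. There HLA-DMA differed by 0.37, 0.15 and 0.44 (adjusted p = 0.144, 0.638 and 0.0930 in limma) and HLA-DMB by 0.27, 0.49 and 0.52 (adjusted p = 0.149, 0.105 and 0.0604).

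CD74 at 12 h was 10.64 (SUDHL2), with a median of 12.45, to 13.12 (TMD8) with DMSO, and 10.56 (SUDHL2), with a median of 12.03, to 13.30 (TMD8) with PQR309. It was lower with PQR309 in 7 of 8 lines, from -0.74 in OCILY1 to -0.08 in SUDHL2, and higher by 0.18 in TMD8. The mean was -0.35 ± 0.09 (SE, n = 8), a ratio of 0.785 with a 95% interval of 0.687 to 0.898, with an adjusted p of 0.0187 in limma. The other CD74 probes gave means of -0.27 and -0.36 at 12 h, each lower in 7 of 8 lines. On raw intensities of 7 lines, which include other arrays of 4 of these lines, the mean was -0.05 (adjusted p = 0.875 in limma) and the test was not passed; in the 4 lines with other arrays the raw 12 h mean was 0.30, higher in 3 of 4.

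From 4 to 12 h the PQR309 difference of HLA-DPA1 fell by 0.28 ± 0.08 on the log2 scale (adjusted p = 0.0400 in limma), 1 of 9 genes called against a background of 10.4% (4.87% higher, 5.51% lower). In the PQR309 arrays themselves HLA-DPA1 went from a mean of 9.93 at 4 h to 9.71 at 12 h and was higher at 12 h in 1 of 8 lines, while with DMSO it went from 9.78 to 9.84. For CD74 the change in difference was -0.57 ± 0.18 (adjusted p = 0.0622 in limma), with DMSO going from 11.98 to 12.27 and PQR309 from 12.20 to 11.92. OCILY1 weighed most in it: its DMSO arrays read 10.50 at 4 h, 12.08 at 8 h and 12.36 at 12 h, and its PQR309 arrays 11.70, 11.56 and 11.61. Without OCILY1 the CD74 change was -0.37 (adjusted p = 0.0445 in limma).

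The HLA-DPA1 calls were fragile. Its 4 h call and its change from 4 to 12 h were each lost in 10 of 15 alternatives, and leaving out any of 6 lines ended each, for example RIVA (0.13, adjusted p = 0.119, and -0.25, adjusted p = 0.102, in limma). Raw intensities of 6 lines gave a change of -0.13 (adjusted p = 0.734 in limma). DMSO cultures alone showed no call from 4 to 12 h (limma, 0 of 9 genes, 2 of 9 at an unadjusted p under 0.05, 7.64% of all genes called, 4.14% higher and 3.5% lower). The 4 lines given every inhibitor and the other 4 were not shown to differ in the PQR309 response of any of the 9 genes (limma, 0 of 9, 0 of 9 at an unadjusted p under 0.05, 0% of all genes called); for HLA-DMA the gap was 0.25, with a 95% interval of -0.01 to 0.51.

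**Figure D3:**
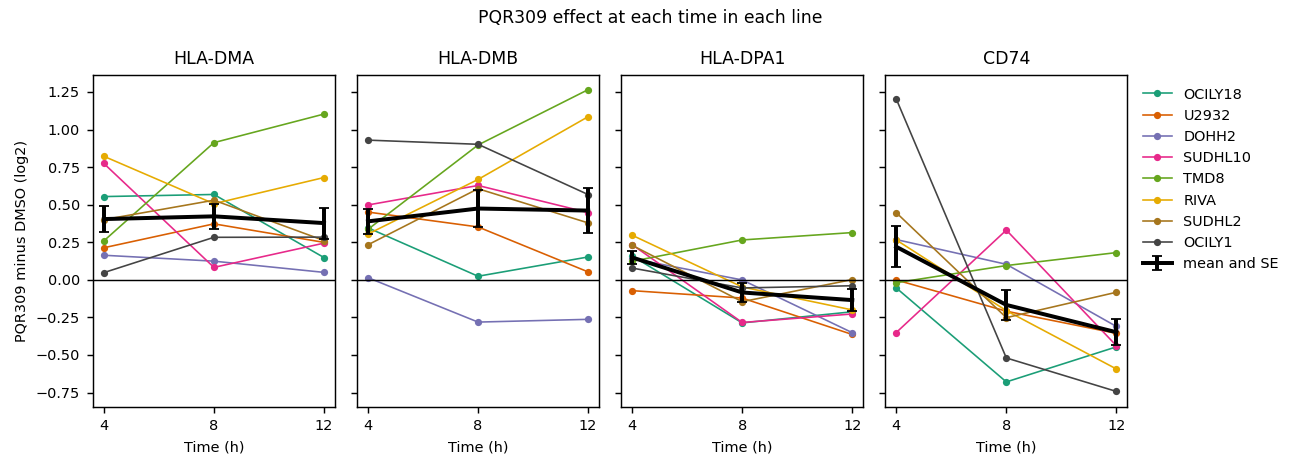
PQR309 minus DMSO (log2) at 4, 8 and 12 h for HLA-DMA, HLA-DMB, HLA-DPA1 and CD74; thin lines are the 8 cell lines, and the thick black line is their mean with limma's SE. The means of HLA-DMA and HLA-DMB stay between 0.38 and 0.47, that of HLA-DPA1 goes from 0.15 to -0.13, and that of CD74 from 0.22 to -0.35, with OCILY1 starting at 1.20.

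Among the 4 inhibitors in RIVA, TMD8, SUDHL2 and U2932, HLA-DMB rose with PQR309, CIITA fell with idelalisib, and no other difference from DMSO passed the test. In this joint fit of the raw arrays the SE pools the spread of all 5 treatments, and the 4 inhibitors share the same DMSO arrays.

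HLA-DMB line means were 11.44 with DMSO and 11.94 with PQR309 in RIVA, 10.18 and 10.94 in TMD8, 8.56 and 9.04 in SUDHL2, and 11.04 and 11.12 in U2932. PQR309 was higher in 4 of 4 lines, with U2932 almost level. The mean was 0.45 ± 0.09 (SE, n = 4), or 1.37-fold with a 95% interval of 1.21 to 1.56, and an adjusted p of 0.00376 in limma, 1 of 8 genes called against a background of 13.5% (7.22% higher, 6.28% lower). Without TMD8 the difference was 0.35 (adjusted p = 0.0589 in limma). In TMD8 HLA-DMB also fell over time with DMSO, from 10.80 at 4 h to 9.79 at 12 h.

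HLA-DMA with PQR309 differed by 0.91 in TMD8, 0.28 in RIVA, 0.16 in SUDHL2 and -0.16 in U2932 in these arrays, with a mean of 0.29 ± 0.13 (SE, n = 4, adjusted p = 0.156 in limma). In the normalized arrays of the same lines the HLA-DMA values were 0.76, 0.67, 0.40 and 0.28, so U2932 changed sign between the 2 sets of arrays. The HLA-DMB values kept their sign in 4 of 4 lines, at 0.83 and 0.77 in TMD8, 0.69 and 0.51 in RIVA, 0.41 and 0.47 in SUDHL2, and 0.29 and 0.07 in U2932.

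The other 3 inhibitors did not move HLA-DM past the test. HLA-DMB differed from DMSO by -0.06 (95% interval -0.25 to 0.12) with idelalisib, 0.09 (-0.09 to 0.27) with duvelisib and -0.12 (-0.30 to 0.06) with ibrutinib. HLA-DMA differed by -0.17 (-0.45 to 0.11), -0.07 (-0.35 to 0.21) and -0.16 (-0.44 to 0.12). The direct comparison of inhibitors gave HLA-DMB higher with PQR309 than with idelalisib by 0.52 ± 0.09 (SE, n = 4, adjusted p = 0.0426 in limma), 1 of 8 genes called against a background of 0.0876% (0.0557% higher, 0.0318% lower). HLA-DMB was also higher with PQR309 than with ibrutinib, by 0.57 ± 0.09 (adjusted p = 0.0204 in limma), 1 of 8 against a background of 0.0557% (0.0478% higher, 0.00796% lower). Leaving out any 1 of the 4 lines ended both calls, with values from 0.46 to 0.65. In those runs 0 of all genes tested were called against idelalisib, and 0 to 9 against ibrutinib. Against duvelisib the gap was 0.36, with a 95% interval of 0.18 to 0.55 (adjusted p = 0.496 in limma), where 0 of 8 members and 0% of all genes were called.

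CIITA line means with DMSO and idelalisib were 6.84 and 6.26 in TMD8, 6.54 and 6.24 in RIVA, 6.13 and 5.98 in SUDHL2, and 6.34 and 6.22 in U2932. Idelalisib was lower in 4 of 4 lines and in all but 1 of 12 line and time pairs. The mean was -0.29 ± 0.07 (SE, n = 4), a ratio of 0.819, with an adjusted p of 0.0285 in limma, 1 of 8 genes called against a background of 4.67% (2.75% higher, 1.92% lower). Most idelalisib values lay below the stand-in detection level of 6.26, which CIITA passed on 8 of 12 DMSO arrays and 3 of 12 idelalisib arrays, so the size of the fall is uncertain. Leaving out TMD8 (-0.19, adjusted p = 0.182 in limma), RIVA (-0.28, 0.181) or U2932 (-0.34, 0.0560) ended the call. Across the runs that left out 1 line, 0 to 435 of all genes tested were called.

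With duvelisib CIITA differed by -0.21 (95% interval -0.36 to -0.07, adjusted p = 0.160 in limma) and with ibrutinib by -0.23 (-0.38 to -0.09, adjusted p = 0.0677), each lower in 4 of 4 lines. With PQR309 it differed by -0.19 (-0.34 to -0.05, adjusted p = 0.0686 in limma), lower in 3 of 4. The other 3 inhibitors were not shown to differ from idelalisib in CIITA, with gaps of 0.07 for duvelisib (-0.07 to 0.22), 0.06 for ibrutinib (-0.09 to 0.20) and 0.09 for PQR309 (-0.05 to 0.24). Duvelisib minus DMSO gave 0 of 8 calls by limma (1 of 8 at an unadjusted p under 0.05, 0.0159% of all genes called), and ibrutinib minus DMSO gave 0 of 8 (1 of 8 unadjusted, 2.97% of all genes called, 1.19% higher and 1.78% lower).

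CD74 with ibrutinib was higher in 4 of 4 lines, by 0.60 in TMD8, 0.58 in RIVA, 0.22 in SUDHL2 and 0.21 in U2932, but did not pass (0.40 ± 0.19, SE, adjusted p = 0.232 in limma). HLA-DRA under the 4 inhibitors lay between -0.17 with idelalisib and -0.05 with PQR309, and its lines went from -0.51 in RIVA with idelalisib to 0.39 in TMD8 with PQR309. HLA-DPA1 lay between -0.04 and 0.13, and HLA-DPB1 between -0.07 and -0.00. HLA-DOB differed by 0.21 with PQR309 (-0.02 to 0.43) and by -0.18 with idelalisib (-0.41 to 0.04). Among duvelisib, idelalisib and ibrutinib, 0 of 8 genes were called by limma in each of 3 comparisons (0, 0 and 1 of 8 at an unadjusted p under 0.05). The background was 0% for duvelisib against idelalisib, 0.00796% for ibrutinib against idelalisib and 0% for ibrutinib against duvelisib.

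**Figure D4:**
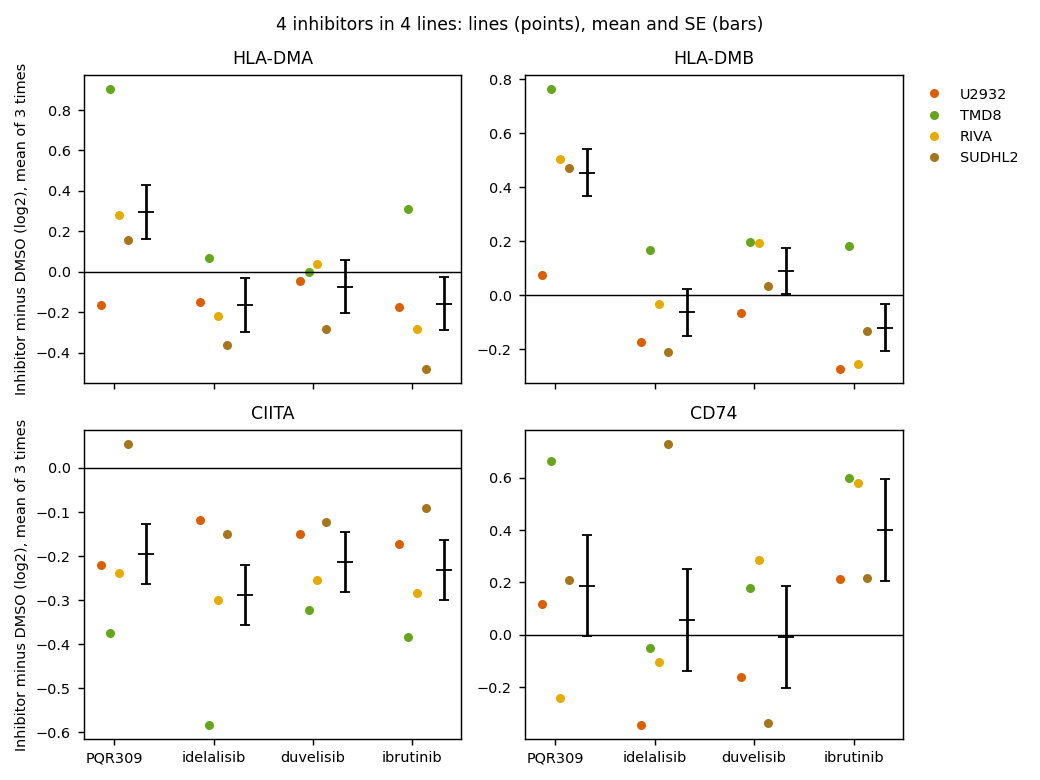
Inhibitor minus DMSO (log2), averaged over 3 times, in RIVA, TMD8, SUDHL2 and U2932 from the raw arrays; points are lines, and black bars are the mean with limma's pooled SE. HLA-DMB lies above 0 in 4 lines with PQR309, CIITA lies below 0 in 4 lines with idelalisib, duvelisib and ibrutinib, and CD74 lies above 0 in 4 lines with ibrutinib.

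The genes around the class II set were read from fixed lists, averaged over 3 times in 8 lines and against the same background of 26.5%. Of 6 other class II genes tested, 1 rose and 0 fell, with a median of 0.00. The riser was HLA-DOA, the HLA-DO alpha chain (0.22 ± 0.05, adjusted p = 0.00798 in limma), higher in every line, from 0.03 in SUDHL2 to 0.40 in OCILY18. In OCILY1 both means, 6.57 with DMSO and 6.64 with PQR309, lay below the detection level.

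Of 7 factors that assemble on class II promoters, 0 rose and 1 fell, NFYA, a subunit of NF-Y (-0.15 ± 0.03, adjusted p = 0.00241 in limma). The RFX subunits, which bind the X box, did not pass: RFX5 differed by -0.01, RFXANK by -0.05 and RFXAP by -0.10 (adjusted p = 0.0514 in limma). Of 9 known regulators of CIITA and B-cell identity, 3 rose and 2 fell. FOXP1 (0.25 ± 0.05), IRF1 (0.29 ± 0.08), an activator of CIITA in the interferon response, and EBF1 (0.19 ± 0.06) rose. SPI1, which encodes the B-cell and myeloid factor PU.1, fell (-0.29 ± 0.07), as did IRF4 (-0.35 ± 0.11).

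Of 10 endosomal proteases and related genes, 1 rose and 2 fell. CTSB, cathepsin B, rose (0.22 ± 0.04, adjusted p = 0.00593 in limma). IFI30, the lysosomal thiol reductase that unfolds antigens, fell (-0.56 ± 0.16, adjusted p = 0.0256 in limma), as did CTSZ, cathepsin Z (-0.34 ± 0.09, adjusted p = 0.0186). Of 16 genes of the class I pathway, 1 rose and 3 fell: HLA-E rose (0.27 ± 0.09), while the chaperone CALR (-0.35 ± 0.07), the peptide transporter subunit TAP2 (-0.29 ± 0.06) and the chaperone CANX (-0.17 ± 0.05) fell. Of 7 genes of T-cell costimulation and adhesion, ICAM3 rose (0.18 ± 0.04) and CD58, the ligand of CD2, fell (-0.30 ± 0.06).

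The genes whose pattern was most like the mean of the class II genes were named by Pearson's r, with no test. Over the 8 DMSO line means they were HLA-DOA (0.93), RPL22L1 (0.92), MAK16 (0.90), TMEM183BP (0.89) and EAF1 (0.89). Over the 24 line and time pairs of PQR309 minus DMSO they were PDLIM7 (0.78), MRPS28 (0.77), RPL26L1 (0.77), NQO2 (0.76) and BCL2L11 (0.75). Within the set, r between the differences of HLA-DMA and HLA-DMB over these 24 pairs was 0.50, and between HLA-DMA and CIITA 0.01. These pairs share lines and arrays, so they are not independent points.

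Marker lists of other cell types were summed on each array. The 6 T-cell markers summed to 39.0 to 40.6 (log2) with DMSO and 39.1 to 40.7 with PQR309, and the 6 monocyte or macrophage markers to 41.9 to 43.3 and 41.9 to 43.8. The 5 dendritic cell markers summed to 33.3 to 35.3 and 33.1 to 35.1. The 4 stroma or endothelium markers summed to 26.2 to 27.2 and 26.3 to 27.4. In PQR309 minus DMSO over 3 times, 1 of 4 monocyte or macrophage markers tested rose, 1 of 5 B-cell markers rose and 1 fell, and 0 of 2 dendritic, 0 of 1 T-cell and 0 of 2 stroma or endothelium markers were called by limma. Over all genes tested in that comparison 26.5% were called, 12.5% higher and 14% lower. Whether the marker changes have a part in the class II results was not tested.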

How the data were processed

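Per the labels, RNA of each culture was hybridised to an Illumina bead array. The authors deposited normalized log2 values for 84 arrays, normalized as separate sets of 48 and 36, and equal to the deposited series matrix log2 values (largest difference 0). The deposited raw intensity table holds 81 arrays, and for 3 arrays a detection p-value that the authors deposited in its place. GenomeStudio is the tool named, per the submitters' processing notes, and further steps are not given in the sources used here.

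Of 47231 probes, 30113 carried 1 symbol in the platform annotation, 8 several and 17110 none. The brighter 50% by mean were kept, with the brightest probe per gene. Raw arrays were processed with limma 3.58.1 in R 4.3.3 (normexp, offset 50, quantile, log2). Each PQR309 array was set against the DMSO array of its line and hour, and the differences were tested over 8 lines. The 4 lines were fitted as 20 line means with the line as a block. The labels' line names pair the arrays, and profiles of a line correlated across genes at 0.925 to 0.954 (8 lines) and 0.877 to 0.980 (4 lines). Calls use a two-sided Benjamini-Hochberg adjusted p under 0.05 over all genes tested; simulated data were used to test the fits. The 10 genes, the lists, the rule for named genes (up to 4 per list by smallest p, the RFX subunits, and the 5 nearest by r) and the motifs were chosen with earlier results of these data known. EBF1, the last riser of its list, was named because the count was small. Alternatives covered filters, probes, sources, normalization, times, lines and the line block. Figures used matplotlib. 0 per-sample columns were left unused.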

Additional observations from a re-analysis of the deposited data

Results flagged for a closer look

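Of 77 groups of 4 to 8 lines examined, 1 held a line far from the others, where chance gives about 1 in 20. It was CIITA with DMSO in OCILY18, at 7.83, whose gap to the next line took 0.532 of the range over 8 lines, above Dixon's 95% critical value for 8 values.

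The PQR309 difference of HLA-DPA1 differed between 12 and 4 h by -0.28 (adjusted p = 0.0400 in limma), lower at 12 h than at 4 h in 7 of 8 lines.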

How the results depend on the processing

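The alternatives run turned the sign of 0 called members, though CD74 at 12 h, -0.35 over 8 lines, had a mean of 0.30 on the raw arrays of the 4 lines with other arrays. The means over 3 times for HLA-DMA and HLA-DMB kept their calls in 16 and 17 of 18 alternatives, from 0.33 to 0.44 and from 0.39 to 0.53. Fitting without the line block, which drops the pairing, left 0 members called in every comparison. Raw intensities of 6 lines gave 1 member (HLA-DMB) for the mean of 3 times. They left out OCILY1, and DOHH2, whose PQR309 difference was the lowest for both HLA-DM genes. Raw intensities gave 0 at 4 h, 8 h and 12 h (7 lines, with OCILY1, at 12 h) and for 12 h minus 4 h. With no filter on dim probes, 1 was called at 8 h, 1 at 12 h and 0 for 12 h minus 4 h. For 12 h minus 4 h, averaging the probes of a gene or keeping the brighter 30% gave 2, and a variance trend gave 0. For PQR309 in 4 lines, leaving out 4 h, a variance trend or cyclic loess gave 2 (CIITA passed too), and a fit of only the 2 treatments compared gave 0. For idelalisib, leaving out 8 h, leaving out 12 h, or only the 2 treatments gave 0. The brighter 30% also gave 0, but CIITA, the only idelalisib call, was too dim to be tested there. Ibrutinib with a normexp offset of 16 gave 1 (CIITA). PQR309 minus idelalisib gave 0 without 4 h, without 8 h, with a trend, with offset 16 and with only the 2 treatments. PQR309 minus ibrutinib gave 0 without 4 h and without 8 h. Leaving out each line in turn gave 2 to 3 members for the mean of 3 times and at 4 h, 1 to 2 at 8 h and 1 to 3 at 12 h. It gave 0 to 2 for 12 h minus 4 h and for PQR309 in 4 lines, 0 to 1 for idelalisib, and 0 to 0 for PQR309 against idelalisib or ibrutinib. Over all genes, these runs called 2584 to 3393 for the mean, 1303 to 2206 at 4 h, 1216 to 2177 at 8 h and 1637 to 2680 at 12 h. They called 722 to 1437 for 12 h minus 4 h, 294 to 2033 for PQR309 in 4 lines and 0 to 435 for idelalisib. PQR309 had 0 to 0 genes called against idelalisib and 0 to 9 against ibrutinib. With 4 lines, these counts rest on few degrees of freedom. Signals near background limit CIITA, HLA-DPB1 and HLA-DRB1, and in OCILY1 also HLA-DRA and HLA-DPA1. In the raw arrays, where HLA-DRB1 was not tested, the offset also compresses the differences of CIITA and HLA-DPB1.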
